A study of Mus musculus with 10 samples.

Results

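The AP-1 site was followed across 10 protein binding microarrays through 88 of the 32896 8-mers scored on each array. These 8-mers hold at least 6 consecutive bases of the AP-1 heptamer TGACTCA on either strand. The set has 8 8-mers with the whole heptamer, 1 for each base beside it, and 80 with 6 of its 7 bases. An 8-mer stands for itself and its reverse complement, because every probe is a duplex. The arrays carried probes of 35 bases. They were incubated with bZIP DNA-binding domains of mouse origin, fused to GST and made by cell-free expression from plasmids. There were 5 groups of 2 arrays: CREB1 on unmethylated DNA, CEBPB(V285A) on unmethylated DNA, CREB1(A297V) on unmethylated DNA, CEBPB(V285A) on methylated DNA and CREB1(A297V) on methylated DNA. For the methylated arrays the duplexes were treated with M.SssI, which methylates the cytosine of CG, for 3 h. CREB1 on methylated DNA and the unmutated CEBPB domain were not analysed here.

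bZIP proteins grip DNA as dimers, and each basic region reads one side of a short palindrome. In the cyclic AMP response element (CRE), the preferred site of CREB1, the sequences TGAC and GTCA abut. In the AP-1 site, the site of JUN and FOS dimers, the same sequences overlap and share the central base pair. Some bZIP proteins, such as yeast GCN4, bind both spacings well. At the substituted position of the basic region CREB1 carries alanine and C/EBP proteins carry valine, so each mutant domain carries the residue of the other family. A 5-methylcytosine has its methyl group where thymine has one, which is why an outer T:A pair of the AP-1 site can be imitated by a methylated C:G pair in some bZIP complexes.

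The sequences below define the comparison. Capitals mark the bases that belong to the AP-1 heptamer, or in the first line to the CRE, which differs from the heptamer by 1 extra central base pair.
full CRE: TGACGTCA
heptamer, A before, C centre: aTGACTCA
heptamer, T after: TGACTCAt
heptamer, G before: gTGACTCA
heptamer, C after: TGACTCAc
heptamer, A after: TGACTCAa
heptamer, C before: cTGACTCA
heptamer, T before: tTGACTCA
heptamer, G after: TGACTCAg
A base after TGACTCA is, read on the other strand, the complementary base before TGAGTCA. TGACTCAt therefore has A before TGAGTCA, TGACTCAc has G, TGACTCAa has T and TGACTCAg has C. The six-base matches are likewise of 2 kinds: 40 keep the TGAC side and are written with TGACTC, and 40 keep the other side and are written with TGAGTC. Among the 40 of each side, 24 have a changed seventh base inside the 8-mer and 16 have the seventh base outside it. A CG dinucleotide occurs in 20 of the 88 8-mers, all six-base matches, and in no heptamer 8-mer, so M.SssI had no target inside a heptamer 8-mer.

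Each 8-mer was summarised as a Z-score, the median signal of its probes on the log2 scale in units of the spread of all 8-mers of that array, so that 0 is the array median. The 8-mers rest on 15 to 42 probes, with a median of 34. Replicate arrays correlated over all 8-mers at r = 0.872 for CREB1(A297V) unmethylated and at r = 0.935 to 0.973 for the other 4 groups. Both CREB1(A297V) unmethylated arrays had the narrowest range, where the top 8-mer exceeded the array median by 2.79 and 2.68 on the log2 scale; on the remaining 8 arrays it did so by 4.73 to 6.05. The labels do not say that replicate arrays came from separate protein preparations, so p-values measure only the spread between these arrays, which may be technical. The deposited names carry an array number that the labels do not explain. One number is shared by CREB1 and CREB1(A297V) unmethylated, another belongs to CEBPB(V285A) unmethylated and another to both methylated groups. CREB1(A297V) against CREB1 and the mutants on methylated DNA were thus compared within 1 number, the latter across different probe layouts, and the other contrasts cannot be told apart from it. On the 2 CREB1(A297V) methylated arrays no probe lay at the same spot as on the first array.

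With every domain the heptamer 8-mers stayed within 2.16-fold of the array median in group means. The highest of the 8 in 4 of the 5 groups was aTGACTCA. Its Z-scores were 3.43 and 4.54 with CREB1, 5.11 and 4.13 with CEBPB(V285A) unmethylated, 1.59 and 3.43 with CREB1(A297V) unmethylated, 3.49 and 4.21 with CEBPB(V285A) methylated, and 3.35 and 4.35 with CREB1(A297V) methylated. The CREB1(A297V) unmethylated arrays were lowest, and the upper of them overlapped the ranges of CREB1 and of CREB1(A297V) methylated. In signal, aTGACTCA stood 1.54-fold above the array median with CREB1, 1.92-fold with CEBPB(V285A) and 1.24-fold with CREB1(A297V), and 2.01-fold and 1.70-fold with the methylated arrays of the mutants. Its rank among the 32896 8-mers lay between 456 and 2479. gTGACTCA, which led with CEBPB(V285A) methylated, had Z-scores of 2.46 and 3.83, 4.58 and 3.20, 0.72 and 1.67, 3.81 and 4.69, and 3.25 and 3.91 in the same order of groups. The CREB1(A297V) unmethylated arrays lay below all 8 others for this 8-mer. TGACTCAt gave 2.97 and 3.34, 2.88 and 2.83, 1.98 and 1.72, 1.89 and 2.83, and 3.10 and 3.50, a smaller spread between groups.

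The base beside the heptamer separated the 8 8-mers. A or G before TGAC, or before TGAG on the other strand, gave the 4 highest CREB1 means: 3.98 ± 0.783 for aTGACTCA, 3.16 ± 0.265 for TGACTCAt, 3.15 ± 0.967 for gTGACTCA and 2.74 ± 1.32 for TGACTCAc (SD, n = 2). On each CREB1 array aTGACTCA was the highest of the 4, at 3.43 and 4.54. The last 3 changed order between the arrays: TGACTCAt gave 2.97 and 3.34, gTGACTCA 2.46 and 3.83, and TGACTCAc 1.80 and 3.67. The 4 therefore have no full order. C beside the site gave the opposite: cTGACTCA had a mean of 0.34 ± 0.040 and TGACTCAg, with C before TGAGTCA, of -0.25 ± 0.131 (SD, n = 2). TGACTCAg was last of the 8 in all 5 groups, from -1.04 ± 0.137 with CREB1(A297V) unmethylated to 0.32 ± 0.272 with CREB1(A297V) methylated (SD, n = 2), and ranked between 9842.5 and 29225 of all 8-mers.

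T beside the site behaved differently on the 2 strands. tTGACTCA stayed low, with Z-scores of 0.14 and -0.12, 0.63 and 0.15, 0.15 and 0.43, 0.74 and 0.79, and 0.75 and 1.24 in the 5 groups. TGACTCAa, with T before TGAGTCA, gave 0.90 and 1.93, 2.84 and 2.41, 0.51 and 1.62, 3.91 and 4.13, and 1.53 and 2.08. TGACTCAa was above tTGACTCA on all 10 arrays, and its 2 CEBPB(V285A) methylated arrays lay above the other 8. The order of the heptamers therefore differed by domain: with CEBPB(V285A) methylated, gTGACTCA, TGACTCAa and aTGACTCA overlapped at the top with means of 4.25, 4.02 and 3.85, while with CREB1(A297V) methylated TGACTCAa, with 1.80, followed 4 others.

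Both flanks together sharpened the contrast, as seen in the 16 9-base sequences centred on the heptamer, each on 8 or 9 probes. These were chosen after the 8-mer values were known and are described without a test. Values are the probes' median log2 signal over the array median, averaged over the 2 arrays. aTGACTCAt, symmetrical outside the centre, reached 1.19 with CREB1, 1.86 with CEBPB(V285A), 0.60 with CREB1(A297V), and 1.37 and 1.35 on the methylated arrays of the mutants. gTGACTCAa reached 1.71 and 2.30 with CEBPB(V285A), unmethylated and methylated, but 0.54 with CREB1 and 0.25 and 0.75 with CREB1(A297V). aTGACTCAa showed the same split, at 1.21 and 1.78 against 0.48, 0.23 and 0.48. At the other end cTGACTCAg lay at -0.26, -0.26, -0.19, -0.32 and 0.01 in the 5 groups, close to or below the array median.

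Single probes with the heptamer varied widely. Of the 146 probes that hold the heptamer, 95 hold none of the other cores searched on either strand (the CRE core TGACG, the C/EBP arm TTGC, the related arm TTAC and the E-box CACGTG). Of those 95 probes, the 3 with the highest and the 3 with the lowest mean log2 signal over the 10 arrays are printed, with the heptamer in capitals.
highest probe: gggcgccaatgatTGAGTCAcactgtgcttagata
second highest probe: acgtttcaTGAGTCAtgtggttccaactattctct
next highest probe: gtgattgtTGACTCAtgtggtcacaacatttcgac
lowest probe: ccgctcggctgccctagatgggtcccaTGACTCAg
second lowest probe: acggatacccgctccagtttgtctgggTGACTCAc
next lowest probe: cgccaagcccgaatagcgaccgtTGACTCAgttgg
The highest probe, with the TGACTCAa form of the site, lay at 0.86 and 1.02 log2 over the array median with CREB1 and at 3.18 and 2.95 with CEBPB(V285A). It reached 4.23 and 4.42 with CEBPB(V285A) methylated but 1.24 and 2.06 with CREB1(A297V) methylated and 0.49 and 0.71 with CREB1(A297V) unmethylated, so both CEBPB(V285A) groups stood above the other groups. The second highest, with an A before and a T after the site, was more even, at 2.10 and 2.49 with CREB1 and 2.51 and 1.86 with CEBPB(V285A). The lowest probe was below the array median on all 10 arrays, between -0.86 and -0.31.

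The heptamer starts at base 14, 9 and 9 of the 3 highest probes and at base 28, 28 and 24 of the 3 lowest, counted from the first base as the files give the probe. Over the 95 probes, the 35 with a start at bases 1 to 10 had a median log2 signal of 0.34 with CREB1, 0.60 with CEBPB(V285A) and 0.14 with CREB1(A297V), and 0.80 and 0.52 on the methylated arrays of the mutants. The 34 with a start at bases 11 to 20 gave 0.35, 0.59, 0.10, 0.39 and 0.36. The 26 with a start at bases 21 to 29 gave -0.02, -0.06, -0.01, -0.00 and 0.10, no higher than the array median except in the last group. The difference between starts up to base 20 and later starts was above 0 on all 10 arrays, from 0.026 to 0.77. Probes with the CRE were also lower late in the probe, but stayed far above the median: the 6 with a start at bases 21 to 29 had 3.81, 4.28, 1.40, 4.42 and 3.41. Scored only from sites that start in the first 20 positions, a setting added after these values were seen, aTGACTCA had means of 4.69, 4.23, 3.09, 3.73 and 4.47, still far below the CRE at 27.7, 21.4, 16.6, 17.3 and 22.9.

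Adding 1 central base pair to the AP-1 site, which makes the CRE, changed binding far more than any flank. The CRE had Z-scores of 29.1 and 32.5 with CREB1, 23.3 and 23.1 with CEBPB(V285A) unmethylated, 12.7 and 16.4 with CREB1(A297V) unmethylated, 19.1 and 18.6 with CEBPB(V285A) methylated, and 21.3 and 21.9 with CREB1(A297V) methylated. The median of the 8 heptamer 8-mers on the same arrays was 1.35 and 2.64, 2.86 and 2.18, 0.617 and 1.64, 1.92 and 2.50, and 2.32 and 2.71, so the ranges were far apart in every group. The CRE exceeded the heptamer median on 10 of 10 arrays, by a median of 19.0 and by 12.1 to 29.9 Z units (exact two-sided sign-flip test over arrays, p = 0.00195, the smallest that 10 arrays can give; adjusted p = 0.00195 over 6 such tests). In group means the gap was 28.8 ± 1.51 with CREB1, 20.7 ± 0.370 with CEBPB(V285A), 13.4 ± 1.86 with CREB1(A297V), 16.7 ± 0.776 with CEBPB(V285A) methylated and 19.0 ± 0.149 with CREB1(A297V) methylated (SD, n = 2). In log2 signal, which does not depend on each array's spread, the gap was 4.53, 4.20, 1.70, 4.31 and 3.77. The smallest gap was on the CREB1(A297V) unmethylated arrays, whose range was narrowest. Whether the narrow range accounts for the smaller gap was not tested.

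The heptamer also fell short of 8-mers with 7 of the 8 CRE bases. In TGACGTCc, TGACGTCg and TGACGTCt the eighth base is changed. In aTGACGTC, cTGACGTC, gTGACGTC and tTGACGTC it lies outside the 8-mer and is not set, so their probes can hold the full CRE. The 7 8-mers that hold 7 of the 8 CRE bases exceeded the heptamer median on 10 of 10 arrays, by a median of 6.57 and by 0.951 to 12.5 Z units between class medians (exact two-sided sign-flip test, p = 0.00195, adjusted p = 0.00195). All 7 lay above the highest heptamer 8-mer on the 6 arrays of CREB1 and of CEBPB(V285A) with either DNA. With CREB1(A297V) that held for 3 and 4 of 7 on the unmethylated arrays and for 6 and 2 of 7 on the methylated ones, so the 2 classes overlapped there. The highest of the 7, by group mean, was gTGACGTC for CREB1, with Z-scores of 17.6 and 22.5, and aTGACGTC for CREB1(A297V) methylated, with a mean of 10.5. G or A before TGAC, the flanks that favoured the heptamer, thus led here too, in 8-mers that leave the eighth base outside.

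At probe level the CRE was again far above the heptamer. The 95 heptamer probes without another core had a median log2 signal of 0.19, 0.27, 0.04, 0.36 and 0.34 over the array median in the 5 groups, and the 19 CRE probes 4.82, 4.70, 1.84, 4.87 and 4.26. No probe holds both sites. With 1 base between TGAC and GTCA and no other core, 8 probes lay between -0.10 and 0.01. With 2 bases between and no other core, 6 probes gave 0.41, 0.27, 0.06, 0.18 and -0.09. The 4279 probes with TGAC alone and no other core lay between -0.02 and 0.05, the level against which the screened sites are read. The screen drops spaced sites with G after TGAC, whereas every CRE probe holds TGACG. Unscreened, 146 heptamer probes gave 0.20, 0.32, 0.11, 0.49 and 0.38. The 17 with 1 base between gave 0.38, 0.57, -0.05, 0.33 and -0.03. The 16 with 2 bases between gave 0.71, 0.85, 0.08, 0.56 and 0.08. Both spaced sites then lay above the heptamer with CREB1 and CEBPB(V285A) unmethylated, and below it with CREB1(A297V). With the screen the sites with 1 base between lay below the heptamer in every group, so their place depends on the screen.

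The C:G centre went with a higher class median than an A:T centre, although the 2 classes overlapped in every group. With CREB1 the means ran from -0.39 to 2.99 with A:T and from -0.25 to 3.98 with C:G. An A:T centre also removes the complete TGAC, and the 2 changes cannot be told apart. The 8 8-mers with an A:T centre, such as atgattca, had medians between 0.07 and 1.07 on the 10 arrays. The heptamer median was higher than theirs on 10 of 10 arrays, by a median of 1.61 and by 0.126 to 2.24 Z units (exact two-sided sign-flip test, p = 0.00195, adjusted p = 0.00195). The heptamers also exceeded the 820 8-mers that hold TGAC with neither CG nor an AP-1 match, by a median of 1.30 and by 0.441 to 2.01 Z units on 10 of 10 arrays (exact two-sided sign-flip test, p = 0.00195, adjusted p = 0.00195). That class had medians between 0.18 and 1.25.

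8-mers with 6 of the 7 bases were lower than the heptamers. The 80 six-base matches had medians between -0.23 and 0.25 on the 10 arrays, near the array median. The heptamer median exceeded theirs on 10 of 10 arrays, by a median of 2.19 and by 0.850 to 2.86 Z units (exact two-sided sign-flip test, p = 0.00195, adjusted p = 0.00195). The class joins 48 8-mers with a changed seventh base, whose medians were -0.40 to -0.02, and 32 whose seventh base lies outside the 8-mer and is not set, whose medians were -0.12 to 0.77. The heptamer median was above both on 10 of 10 arrays, by medians of 2.35 and 1.85. Base by base, aTGACTCA was above each of its 3 seventh-base variants on 10 of 10 arrays, by medians of 3.03 over aTGACTCc, 1.58 over aTGACTCg and 1.97 over aTGACTCt. Where C or T came before TGAC, and the heptamer itself was low, the differences were smaller. cTGACTCA exceeded cTGACTCc on 7 of 10 arrays by a median of 0.45, cTGACTCg on 7 of 10 by 0.33 and cTGACTCt on 10 of 10 by 1.21. tTGACTCA exceeded tTGACTCc on 9 of 10 by 0.45, tTGACTCg on 10 of 10 by 0.95 and tTGACTCt on 10 of 10 by 1.18. With T before TGAG they were large: tTGAGTCA exceeded tTGAGTCc, tTGAGTCg and tTGAGTCt by 3.06, 1.96 and 3.75, on 10 of 10 arrays each. With C before TGAG, cTGAGTCA exceeded cTGAGTCc, cTGAGTCg and cTGAGTCt by 1.03, 0.74 and 0.99, on 9, 9 and 8 of 10.

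Among the six-base matches the TGAC side was higher than the TGAG side. The median of the 40 matches with TGACTC was above that of the 40 with TGAGTC on 10 of 10 arrays, by a median of 0.671 and by 0.240 to 1.37 Z units (exact two-sided sign-flip test, p = 0.00195, adjusted p = 0.00195). TGACTC keeps a complete TGAC, the CRE arm, whereas TGAGTC holds none. The TGACTC matches were not above other 8-mers with that arm: the 820 8-mers with TGAC and neither CG nor an AP-1 match had the higher median on 10 of 10 arrays, by 0.245 to 0.712. The highest of the 80 had A or G before TGAC: cgTGACTC with 3.13 ± 1.77 and taTGACTC with 3.04 ± 0.888 for CREB1, gaTGACTC with 3.83 ± 1.54 and aTGACTCg with 3.50 ± 0.468 for CEBPB(V285A) (SD, n = 2). Several of these had wide replicate spreads: gaTGACTC was 4.92 and 2.74 on the 2 CEBPB(V285A) unmethylated arrays. aaTGACTC led with CREB1(A297V) unmethylated at 2.20 ± 0.752, cgTGACTC with CEBPB(V285A) methylated at 3.02 ± 0.797, and caTGAGTC with CREB1(A297V) methylated at 2.07 ± 0.005 (SD, n = 2). The lowest was tTGAGTCt in 3 groups, with Z-scores between -2.11 and -0.86 over all 10 arrays.

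Between 0 and 6 of the 88 reached a mean Z-score of 3 in a group. As a share of the 88, this was above the share of all 8-mers in every group except CREB1(A297V) unmethylated. The counts are small, and whether they differ from the share of all 8-mers was not tested. With CREB1 there were 5, of which 3 were heptamers, against 2.69% of all 8-mers. With CEBPB(V285A) there were 6, of which 2 were heptamers, against 3.50%, and with CREB1(A297V) 0 against 1.68%. On methylated DNA both mutants had 4, against 3.28% and 2.90%. For CEBPB(V285A) methylated 3 of the 4 were heptamers and for CREB1(A297V) methylated all 4.

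The 16 six-base matches whose seventh base was replaced by G form a CG, and the 2 sides behaved differently. The side difference was not particular to G, as the TGACTC side was also higher with C or T there. With CREB1 the TGACTC and TGAGTC medians were 0.63 and -0.56 for C, and 0.57 and -0.94 for T. With CEBPB(V285A) unmethylated they were 0.41 and -0.81 for C, and 0.83 and -0.73 for T. The 8 with TGACTCg had a median of 1.26 with CREB1, 0.40 with CEBPB(V285A) and -0.18 with CREB1(A297V), and of -0.04 and -0.24 on the methylated arrays of the mutants. aTGACTCg was highest of the 8 in all 5 groups, with Z-scores of 2.07 and 3.79, 3.83 and 3.17, -0.06 and 0.90, 1.99 and 1.97, and 1.14 and 0.68. Its CEBPB(V285A) arrays were lower when methylated, without overlap, but the difference was not called. The 8 with TGAGTCg stayed near the array median in all groups, with medians of -0.12, 0.08, 0.08, 0.06 and 0.22 and no mean above 1.25. Both sets hold an AP-1 site in which an outer T:A pair is replaced by a C:G pair. None of the 8 TGAGTCg 8-mers was called between methylated and unmethylated arrays of either mutant.

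The comparisons between groups used limma across all 8-mers, with 5 residual degrees of freedom and Benjamini-Hochberg adjustment over the 32896 8-mers. Calls were made below an adjusted p of 0.05. Between CEBPB(V285A) and CREB1 on unmethylated DNA, 0 of the 88 8-mers were higher with CEBPB(V285A), against 3.67% of all 8-mers, and 5 were lower (5.68%), against 2.53%. An unadjusted p below 0.05 was found for 18 of the 88 (20.5%) and for 22.1% of all 8-mers. No heptamer was called, and 1 had an unadjusted p below 0.05: TGACTCAa, at 2.63 ± 0.299 with CEBPB(V285A) and 1.41 ± 0.728 with CREB1 (SD, n = 2; difference 1.21 ± 0.434 SE, adjusted p = 0.103). The median difference was 0.01 over the 88, 0.41 over the heptamers and 0.01 over all 8-mers. The 5 lower 8-mers were six-base matches: ggTGACTC by -1.53, aaTGACTC by -1.36, cgTGAGTC by -1.25, tgTGAGTC by -1.22 and TGACTCgc by -0.95. For ggTGACTC the means were 0.42 ± 0.528 with CEBPB(V285A) and 1.96 ± 0.104 with CREB1 (SD, n = 2; adjusted p = 0.00623), a call lost without CEBPB(V285A) unmethylated replicate 2 (adjusted p up to 0.13 without 1 array). The call of cgTGAGTC was lost without CEBPB(V285A) unmethylated replicate 1 (adjusted p up to 0.14), and that of tgTGAGTC without either array of that group or CREB1 replicate 2 (up to 0.21). Those of aaTGACTC and TGACTCgc were lost without any 1 array other than the 2 CREB1(A297V) unmethylated arrays (up to 0.21 and 0.35). The count was 1 without either CEBPB(V285A) unmethylated array and 3 without any 1 of the 4 methylated arrays.

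CREB1(A297V) gave lower values than CREB1 on unmethylated DNA. Of the 88 8-mers 23 were lower (26.1%), against 10.8% of all 8-mers, and 0 were higher, against 8.13%. An unadjusted p below 0.05 was found for 29 (33.0%) and for 32.5% of all 8-mers. The median difference was -0.31 over the 88 and 0.02 over all 8-mers. Of the heptamers 3 were called. gTGACTCA was at 1.20 ± 0.674 with CREB1(A297V) and 3.15 ± 0.967 with CREB1 (SD, n = 2; difference -1.95 ± 0.571 SE, adjusted p = 0.0225), TGACTCAt differed by -1.31 (adjusted p = 0.0343) and TGACTCAg by -0.80 (adjusted p = 0.0232). These 3 calls did not survive the loss of single arrays, and all 3 were also lost with the authors' deposited Z-scores and with no window correction. Without 1 array at a time gTGACTCA ran from -2.63 to -1.26 (adjusted p up to 0.24) and TGACTCAg from -0.89 to -0.70 (up to 0.14), both lost without CREB1 replicate 2 or CREB1(A297V) unmethylated replicate 1. TGACTCAt ran from -1.50 to -1.12 (up to 0.17) and was lost without any of 4 arrays: CREB1 replicate 2, CREB1(A297V) unmethylated replicate 2 and both CEBPB(V285A) unmethylated arrays. aTGACTCA, at 3.43 and 4.54 against 1.59 and 3.43, differed by -1.47 ± 0.631 SE and was not called (adjusted p = 0.112).

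The 5 largest differences were in six-base matches, 4 of them with CG. cgTGACTC fell from 1.88 and 4.39 with CREB1 to -0.35 and 0.02 with CREB1(A297V) (difference -3.30 ± 0.556 SE, adjusted p = 0.000476). TGACTCgg fell from 2.05 and 2.75 to -0.48 and 0.26 (-2.51 ± 0.339 SE, adjusted p = 7.04e-05), and gTGACTCg from 1.04 and 1.51 to -0.96 and -0.74 (-2.13 ± 0.269 SE, adjusted p = 4.12e-05). aTGACTCg differed by -2.51 (adjusted p = 0.00115). The 2 groups did not overlap for any of these 4, and the 4 calls were kept without each array in turn, with adjusted p up to 0.029. gaTGACTC differed by -2.32 (adjusted p = 0.0119), a call lost without CREB1 replicate 2 or CREB1(A297V) unmethylated replicate 1 (adjusted p up to 0.18). All 8 TGACTCg 8-mers were below CREB1, 6 of them called, with a median difference of -1.27, while the TGAGTCg 8-mers had a median of 0.10 and 1 call, TGAGTCgc at -0.75 (adjusted p = 0.0471), lost without any 1 of 8 arrays (adjusted p up to 0.24). The 8-mers with 7 of the 8 CRE bases moved further: all 7 were called lower, by a median of -11.6. The count of 23 became 11 without CREB1 replicate 2. CREB1(A297V) unmethylated had the narrowest range of the groups, and its part in these differences was not tested.

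CEBPB(V285A) against CREB1(A297V) on unmethylated DNA shares the CREB1(A297V) arrays with the comparison above. Here 21 of the 88 were higher with CEBPB(V285A) (23.9%), against 14.1% of all 8-mers, and 0 were lower, against 11.5%. At an unadjusted p below 0.05 there were 34 (38.6%), and 38.0% of all 8-mers. The median difference was 0.21 over the 88, 1.11 over the heptamers and -0.01 over all 8-mers. Of the heptamers 5 were called. gTGACTCA, at 4.58 and 3.20 against 0.72 and 1.67, differed by 2.70 ± 0.571 SE (adjusted p = 0.00204). aTGACTCA differed by 2.11 (adjusted p = 0.0194), TGACTCAa by 1.56 (adjusted p = 0.013), TGACTCAg by 1.21 (adjusted p = 0.00103) and cTGACTCA by 0.81 (adjusted p = 0.0282). The replicates of the 2 groups did not overlap for any of the 5. Only TGACTCAg of the 5 kept its call without each array (adjusted p up to 0.022); the other 4 lost it without CEBPB(V285A) unmethylated replicate 1, and aTGACTCA, TGACTCAa and cTGACTCA also without CREB1(A297V) unmethylated replicate 1, at differences of 1.19 to 3.03, 1.01 to 2.11 and 0.70 to 0.92. cTGACTCA lost it without CEBPB(V285A) unmethylated replicate 2 too. Without 1 array gTGACTCA ran from 2.01 to 3.38 (adjusted p up to 0.066).

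Among the six-base matches gaTGACTC differed most, at 3.83 ± 1.54 against 0.05 ± 1.08 (SD, n = 2; difference 3.78 ± 0.608 SE, adjusted p = 0.000212). cgTGACTC differed by 3.32 (adjusted p = 0.000299), aTGACTCg by 3.09 (adjusted p = 0.000131) and tgTGACTC by 2.16 (adjusted p = 6.83e-05). These 4 kept their calls without each array in turn. Of the 16 six-base matches called, 15 had the TGAC side and 1 the TGAG side. The total of 21 fell to 7 without CEBPB(V285A) unmethylated replicate 1. The 7 8-mers with 7 of the 8 CRE bases were all called higher, by a median of 10.3.

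With CEBPB(V285A), no heptamer was called between methylated and unmethylated probes, and 1 had an unadjusted p below 0.05: TGACTCAa, at 3.91 and 4.13 methylated against 2.84 and 2.41 unmethylated, without overlap (difference 1.39 ± 0.434 SE, adjusted p = 0.0558). The median heptamer difference was 0.25, and 0.01 over all 8-mers. Of the 88 8-mers 8 were higher on methylated DNA (9.09%), against 3.84% of all 8-mers, and 2 were lower (2.27%), against 3.73%. The 2 lower ones hold CG, as do 2 of the 8 higher ones, cgTGAGTC and tTGACTCg, so the calls with CG went both ways. Of the lower ones, TGACTCgg went from 1.96 and 1.75 to 0.06 and 0.87 (difference -1.39 ± 0.339 SE, adjusted p = 0.0193) and cTGACTCg differed by -0.93 (adjusted p = 0.0374). Of the 8 TGACTCg 8-mers 7 were below 0, with a median difference of -0.44. The exception, named after its values were seen, was tTGACTCg, called higher from a low level, -0.92 and -1.22 to -0.21 and -0.07 (adjusted p = 0.0496), lost without any 1 of 6 arrays (adjusted p up to 0.28). The higher ones included cgTGAGTC by 1.11, atTGAGTC by 1.10, ctTGACTC by 1.08, cTGACTCc by 1.07 and tTGACTCc by 1.01, whose methylated means were between 0.06 and 1.35. The 2 lower calls and these 5 were all lost without CEBPB(V285A) unmethylated replicate 1 and without methylated replicate 1 (adjusted p up to 0.30 over single arrays left out). The count of 10 was 0 without CEBPB(V285A) unmethylated replicate 1 or methylated replicate 1, 3 and 1 without their respective replicate 2, 5 without either CREB1(A297V) methylated array and 17 without either CREB1(A297V) unmethylated array. For comparison, the 7 8-mers with 7 of the 8 CRE bases all hold CG. Of these 3 were called lower, with a median difference of -4.59 over the 7.

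With CREB1(A297V), all 8 heptamers had higher means on methylated DNA although none of them holds a CG. Of these 5 were called, and the median heptamer difference was 1.35, against 0.02 over all 8-mers. gTGACTCA went from 0.72 and 1.67 to 3.25 and 3.91 (difference 2.38 ± 0.571 SE, adjusted p = 0.0068). TGACTCAc differed by 1.72 (adjusted p = 0.0317), TGACTCAt by 1.45 (adjusted p = 0.0185), TGACTCAg by 1.36 (adjusted p = 0.000729) and cTGACTCA by 1.33 (adjusted p = 0.00187). Methylated and unmethylated arrays did not overlap for any of the 5. TGACTCAg and cTGACTCA kept their calls without each array (adjusted p up to 0.020 and 0.023), and TGACTCAg also in the 12 other settings tried, while cTGACTCA was lost with the authors' deposited Z-scores. gTGACTCA lost its call without CREB1(A297V) unmethylated replicate 1 or methylated replicate 2 (1.90 to 2.86, adjusted p up to 0.087). TGACTCAc and TGACTCAt were lost without either methylated array, and without unmethylated replicate 1 and replicate 2 respectively (0.99 to 2.46 and 1.26 to 1.65). Of the 88, 20 were higher (22.7%), against 10.4% of all 8-mers, and 2 were lower (2.27%), against 11.1%. All 20 higher 8-mers lack CG, and both lower ones, cTGACTCg at -0.83 and TGAGTCcg at -0.72, hold it (adjusted p = 0.0298 and 0.0364). cTGACTCg lost its call without CREB1(A297V) unmethylated replicate 2 or either methylated array, and TGAGTCcg without any of 7 arrays. The 8-mers with 7 of the 8 CRE bases were not called, with a median difference of 1.24. The count of 22 was 6 without CREB1(A297V) methylated replicate 1 and 3 without replicate 2. This contrast sets the arrays of narrowest range against 2 arrays with the probes at other spots and another array number, and these cannot be told apart from methylation.

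Between the mutants on methylated DNA 1 of the 8 heptamers was called, TGACTCAa, at 3.91 and 4.13 with CEBPB(V285A) against 1.53 and 2.08 with CREB1(A297V), without overlap (difference 2.22 ± 0.434 SE, adjusted p = 0.00234). Its call was kept without each array in turn, with differences of 1.94 to 2.49. The median heptamer difference was -0.06, and 0.06 over all 8-mers. Of the 88, 8 were higher with CEBPB(V285A) (9.09%), against 6.75% of all 8-mers, and 1, ccTGAGTC at -0.74, was lower (1.14%), against 5.49%. cgTGACTC differed by 2.30 (adjusted p = 0.0104), caTGACTC by 1.36 (adjusted p = 0.0288), TGAGTCgc by 1.23 (adjusted p = 0.00383) and gtTGAGTC by 1.11 (adjusted p = 0.00799). TGAGTCgc had Z-scores of 0.85 and 0.47 with CEBPB(V285A) and -0.52 and -0.63 with CREB1(A297V). These 4 calls and ccTGAGTC were each lost without 2 or more of the 4 methylated arrays in turn (adjusted p up to 0.29). The count of 9 was 2 or 3 without any 1 of those 4. The probes lay at other spots on the CREB1(A297V) arrays than on the CEBPB(V285A) arrays of this contrast, and array layout and domain cannot be told apart here.

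The response to methylation itself was then compared between the mutants, as the methylated minus unmethylated difference of CEBPB(V285A) minus that of CREB1(A297V). No 8-mer of the 88 had a significantly larger response with CEBPB(V285A), against 1.42% of all 8-mers, and 1 had a smaller one (1.14%), against 1.64%. It was gaTGACTC, with a difference between responses of -3.29 ± 0.860 SE (adjusted p = 0.0431). Its Z-scores went from 4.92 and 2.74 to 2.23 and 2.21 with CEBPB(V285A) and from -0.71 and 0.82 to 2.08 and 1.41 with CREB1(A297V). The call was lost without any 1 of 6 arrays: CEBPB(V285A) unmethylated replicate 1, CREB1(A297V) unmethylated replicate 1 and the 4 methylated arrays (-4.38 to -2.21, adjusted p up to 0.24). No heptamer was called, though 6 of the 8 had an unadjusted p below 0.05, as did 26 of the 88 (29.5%) and 20.5% of all 8-mers. The closest was TGACTCAg, at -1.21 ± 0.332 SE (adjusted p = 0.0517), and the median heptamer response differed by -1.58, against 0.02 over all 8-mers. The count of 1 was 0 without CEBPB(V285A) unmethylated replicate 1 or any methylated array, 5 without either CREB1 array and 9 without CREB1(A297V) unmethylated replicate 2.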

How the data were processed

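The deposited scanner files give, per the file headers, a median signal intensity and a background intensity for each spot of 10 arrays of 1 colour (Cy5, per the labels). The authors also deposited a Z-score per 8-mer, a score whose exact calculation is not given in the sources used here. It was used as an alternative, and correlated with the Z-scores used here at r = 0.661 to 0.869 on the 10 arrays. The members and lists were chosen with earlier results of these data known.

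From each spot's log2 median signal the median of a window of 15 × 15 spots was subtracted. The median over all probes holding an 8-mer on either strand was taken, then centred on the array's median and divided by 1.4826 times the median absolute deviation. Signal was 345 to 1857 in array median and 1.79 to 5.10 times the background; the number of arrays limits the precision. Groups were compared with limma 3.58.1 in R 4.3.3 (lmFit, eBayes with a variance trend, 10 arrays, 1 coefficient per group, 7 comparisons), checked on simulated data. Classes were compared within arrays by exact sign-flip tests. These count the 2 arrays of a group as separate units, although they may be technical replicates. A test of 2 arrays against 2 alone cannot go below 0.333.

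The 8-mers named are all heptamers, the TGAGTCg 8-mers, the highest and lowest six-base matches of each group, and the 5 largest called differences in each direction. The TGACTCg 8-mers were added after their values were seen. Alternatives were the deposited Z-scores, normexp, no window, no spread scaling, quantile normalization, a trimmed mean, no dim probes, no probes with other cores, no trend, only the compared groups, a replicate block and single arrays left out. The restriction to early sites was added after seeing the data.

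Replicate numbers were checked as pairs: over 10 pairs the deviations of same-numbered arrays correlated between -0.213 and 0.333, with 2 pairs over 0.1, so the fit had no replicate block.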

Additional observations from a re-analysis of the deposited data

Results flagged for a closer look

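gaTGACTC, which holds no CG, was picked out because its response to probe methylation differed between the mutants. The difference between responses, CEBPB(V285A) minus CREB1(A297V), was -3.29 Z units (limma interaction contrast, adjusted p = 0.0431). The call was lost without any 1 of 6 arrays.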

How the results depend on the processing

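The CRE lay above the heptamer median on 10 of 10 arrays in every scoring tried and on 9 of 9 with 1 array left out. Counts of called AP-1 8-mers moved more. They are given in this order: each mutant against CREB1 (CEBPB(V285A) first), the mutants on unmethylated DNA, methylation for CEBPB(V285A), methylation for CREB1(A297V), the mutants on methylated DNA, and the difference between methylation responses. The counts were 5, 23, 21, 10, 22, 9 and 1. They became 1, 14, 13, 1, 9, 4 and 1 with the authors' deposited Z-scores, 9, 26, 20, 7, 9, 5 and 0 with normexp, and 1, 9, 14, 0, 8, 4 and 2 with no window. Without scaling by the spread they were 13, 18, 35, 30, 26, 26 and 7, with a trimmed mean 9, 45, 47, 23, 34, 26 and 19, and without dim probes 3, 19, 20, 9, 19, 7 and 1. Without a variance trend they were 4, 19, 23, 4, 18, 8 and 1, and with only the compared groups 4, 10, 17, 27, 20, 21 and 5. Without probes that hold other cores they were 5, 23, 27, 14, 16, 9 and 3, and from early sites 1, 24, 23, 8, 17, 9 and 3. With a replicate block, which treats equal replicate numbers as a pairing, they were 6, 23, 22, 12, 24, 9 and 2, and no named call was lost; the numbers do not pair the arrays. Quantile normalization gave counts within 1.5 times of the first. Leaving out 1 array gave 1 to 7, 11 to 26, 7 to 25, 0 to 17, 3 to 25, 2 to 11 and 0 to 9.

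Of 53 named calls 11 were kept without each array and in all 12 other settings. They include TGACTCAg for methylation with CREB1(A297V) and TGACTCAa for the mutants on methylated DNA. With the authors' deposited Z-scores 29 of the 53 were lost. Direction turned in 2: TGACTCgc between CEBPB(V285A) and CREB1 with a trimmed mean (0.0237), and cTGACTCc on methylation of CEBPB(V285A) without other cores (-0.0181). The cause of these changes was not tested.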
